A study of Mus musculus with 9 samples.

Results

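Levels of 7 membrane-spanning 4A (MS4A) genes, grouped as myeloid, were followed in mouse lung: Ms4a4a, Ms4a4c, Ms4a6b, Ms4a6c, Ms4a6d, Ms4a7 and Ms4a8a. They are 7 of the 25526 names in the deposited expression table and were picked by symbol with the FPKM values of all groups known, so their levels and differences are a description and support nothing. FPKM is the number of sequenced fragments scaled to transcript length and to the library total. The lungs came from 9 mice in 3 groups of 3, and the study's question was the mechanism of an inhalable, enzyme-like peptide material in pulmonary fibrosis. The nanozyme group was given PepNzymeSOD-CAT, a peptide material named for superoxide dismutase and catalase activity. The model group carried the pulmonary fibrosis model, and the normal group is labelled only as normal. Strain, age, sex, the agent that caused fibrosis, doses and times are not given in the sources used here, and neither is a statement that the nanozyme mice also carried the model.

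MS4A proteins are small, hydrophobic proteins that pass through the membrane several times, with both ends inside the cell. They act mostly beside other receptors, on the surface or in endosomes, and tune their signalling. The best known are CD20 of B cells, encoded by Ms4a1, and the beta chain of the high-affinity IgE receptor of mast cells, encoded by Ms4a2. The 7 genes studied here are known mainly from myeloid cells, and in humans variants at the MS4A locus are tied to the level of soluble TREM2, a lipid-sensing receptor of macrophages and microglia.

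In GENCODE vM21, on GRCm38, the genes with an Ms4a symbol lie together on chromosome 19, from Ms4a10 to Ms4a3, over 678.6 kb (chr19:10962293-11640851). All 7 members are protein coding. Ms4a7, Ms4a4a, Ms4a4c, Ms4a6c, Ms4a6b and Ms4a6d lie within 283.8 kb (chr19:11321039-11604849), whereas Ms4a8a (chr19:11067471-11081102) lies 239.9 kb away from Ms4a7. Across coding sequences, Ms4a6b was 85.4% identical to Ms4a6c and 81.2% identical to Ms4a6d, and Ms4a6c and Ms4a6d were 79.0% identical. Ms4a4c was 91.7% identical to Ms4a4b and 87.9% to Ms4a4d, which are not members, and 68.2% identical to Ms4a4a. Identity of Ms4a7 or Ms4a8a to any other member was at most 62.6%. Few reads of 100 bases could be shared despite this: 1.66% of the 100-base windows of Ms4a4c transcripts also occur in another gene, 0.513% of those of Ms4a6c, and 0 of those of the other 5 members. The read length is not given in the sources used here.

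The 250 bases before the RefSeq gene start were available for 6 of the 7 members, all but Ms4a6d (GRCm38.p6). Those of the closest relatives among them are shown because the results below set these genes against each other. The upstream windows of Ms4a6b and Ms4a6c (chr19:11518309-11518558 and chr19:11469118-11469367, both plus strand) hold an identical run of 48 bases, in capitals. They were 85.1% identical over 175 aligned bases. Those of Ms4a4c and its relative Ms4a4b (chr19:11407411-11407660 and chr19:11443308-11443557, both plus strand) share a run of 20 bases, in capitals, and were 80.1% identical over 231 aligned bases. By GENCODE vM21 coordinates the windows of Ms4a6b and Ms4a4c lie inside those genes, which start at 11516512 and 11404770. A link between these sequences and the levels was not tested.
Ms4a6b: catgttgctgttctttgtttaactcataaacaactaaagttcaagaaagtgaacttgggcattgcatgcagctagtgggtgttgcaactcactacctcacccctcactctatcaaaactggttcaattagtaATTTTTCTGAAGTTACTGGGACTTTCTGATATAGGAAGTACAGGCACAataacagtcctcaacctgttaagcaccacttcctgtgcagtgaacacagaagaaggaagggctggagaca
Ms4a6c: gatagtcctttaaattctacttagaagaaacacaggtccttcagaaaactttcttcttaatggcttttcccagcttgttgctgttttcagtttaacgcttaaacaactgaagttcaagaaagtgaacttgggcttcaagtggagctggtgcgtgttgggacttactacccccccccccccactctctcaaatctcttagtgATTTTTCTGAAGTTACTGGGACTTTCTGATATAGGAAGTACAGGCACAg
Ms4a4c: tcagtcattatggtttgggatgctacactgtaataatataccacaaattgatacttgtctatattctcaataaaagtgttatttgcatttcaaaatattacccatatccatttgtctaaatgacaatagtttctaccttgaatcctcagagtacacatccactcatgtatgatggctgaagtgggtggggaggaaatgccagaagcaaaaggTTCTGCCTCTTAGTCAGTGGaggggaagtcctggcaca
Ms4a4b: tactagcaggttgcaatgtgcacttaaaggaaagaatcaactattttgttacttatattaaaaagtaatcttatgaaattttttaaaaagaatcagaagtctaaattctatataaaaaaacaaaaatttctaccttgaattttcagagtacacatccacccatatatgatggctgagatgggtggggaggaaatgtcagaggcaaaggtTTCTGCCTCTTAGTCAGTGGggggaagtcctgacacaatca

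The run shared by Ms4a6b and Ms4a6c holds the letters AGGAAGT, the core bound by ETS factors such as PU.1. These letters were searched after the windows had been seen. On either strand they occur in 2 of the 7 windows of 6 members, those of Ms4a6b and Ms4a6c, and in 7.69% of 32851 RefSeq windows of this length. The interferon-stimulated response element, the interferon-gamma-activated site (TTCNNNGAA), a longer PU.1 site (AGAGGAAG, which overlaps the ETS core) and the C/EBP core (TTGCNNAA) occur in 2.98%, 7.02%, 3.67% and 9.56% of those windows. None of these 4 was found in a member window. With 7 windows and such low shares, this does not show that the sites are lacking. Such matches describe letters, not binding.

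The libraries held high levels of lung genes: the lowest value of any library was 6180 FPKM for Sftpc, encoding surfactant protein C, and 5140 FPKM for Scgb1a1, encoding the club cell secretory protein. The highest values were 25200 and 71100 FPKM, so the levels of these 2 genes varied widely between libraries. Column sums ran from 443746 to 519772 FPKM. The depth behind each FPKM value is unknown, and the number of mice limits the precision. Nanozyme replicate 2 stood apart from the other nanozyme libraries for 6 of the 7 members, and the members' nanozyme differences and the counts of passing genes in each list are therefore given with and without it. It was singled out after the values were seen, so calls made without it are a description and support nothing. In whole lung, fewer cells of a type and less RNA per cell cannot be told apart. Which cells carried the MS4A transcripts was not tested either. Each library came from 1 mouse, per the labels. Values given with ± for a group are means with their SD over 3 libraries, and differences are log2 differences ± SE of log2(FPKM + 1), fitted with limma across all genes tested.

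The 3 Ms4a6 genes held the highest levels in fibrotic lung. Ms4a6d, whose mouse protein forms an inhibitory membrane complex with the macrophage receptor VSIG4, had 20.4, 80.5 and 18.3 FPKM in nanozyme lungs, 75.0, 177 and 115 FPKM in model lungs, and 4.90, 5.25 and 5.17 FPKM in normal lungs. Every model and nanozyme library exceeded every normal library, and nanozyme replicate 2 fell within the range of the model libraries. The group means were 39.7 ± 35.3, 122 ± 51.6 and 5.11 ± 0.184 FPKM in nanozyme, model and normal lungs. Its difference was 4.25 ± 0.53 for model against normal, the largest of the 7.

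Ms4a6c had 27.5, 64.0 and 22.9 FPKM in nanozyme lungs, 64.6, 114 and 87.8 FPKM in model lungs, and 4.97, 5.58 and 5.41 FPKM in normal lungs. The 3 groups did not overlap, although nanozyme replicate 2 came within 1 FPKM of the lowest model library. Ms4a6b, known from mouse T cells as well, had 23.3, 45.1 and 25.3 FPKM in nanozyme lungs, 41.9, 69.3 and 57.1 FPKM in model lungs, and 7.57, 8.35 and 8.66 FPKM in normal lungs. Normal lungs were lowest throughout, and nanozyme replicate 2 lay inside the model range. The difference of model against normal was 3.79 ± 0.36 for Ms4a6c and 2.61 ± 0.26 for Ms4a6b.

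**Figure D1:**
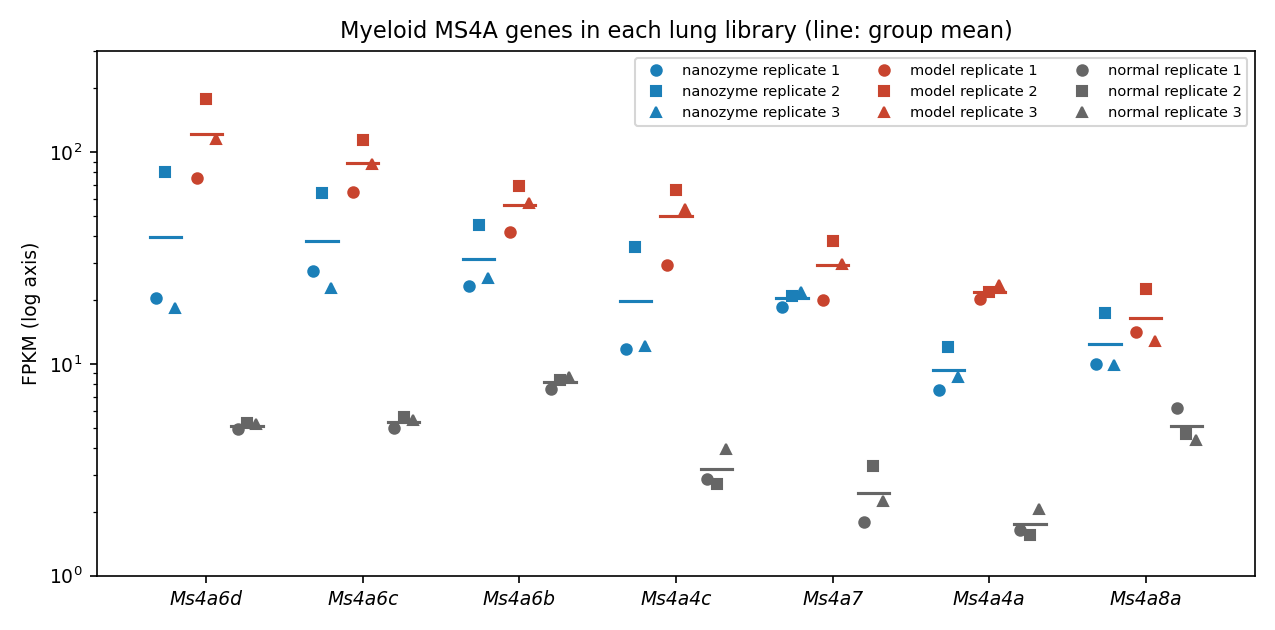
FPKM (log axis) of the 7 myeloid MS4A genes in each library, with the 3 groups side by side within each gene, symbols for replicates and a line at the group mean. All normal libraries sit below all model and nanozyme libraries, and Ms4a7 is the gene whose nanozyme libraries lie closest together (18.6 to 21.8 FPKM).

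Both Ms4a4 members were lower in level than the Ms4a6 genes in model lung. Ms4a4a, whose human counterpart marks alternatively activated macrophages and associates with the fungal receptor Dectin-1, had 7.48, 12 and 8.62 FPKM in nanozyme lungs, 20.2, 21.7 and 23.5 FPKM in model lungs, and 1.64, 1.55 and 2.07 FPKM in normal lungs. The 3 groups were separate, and the model libraries lay close together (21.8 ± 1.65 FPKM). Ms4a4c, a mouse gene of the same subfamily, had 11.7, 35.7 and 12.1 FPKM in nanozyme lungs, 29.3, 66.3 and 53.6 FPKM in model lungs, and 2.86, 2.71 and 3.96 FPKM in normal lungs. Nanozyme replicate 2 lay inside the model range, while replicates 1 and 3 were below it. The difference of model against normal was 3.05 ± 0.17 for Ms4a4a and 3.54 ± 0.44 for Ms4a4c.

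Ms4a7, a marker of macrophages in several tissues, had the nanozyme libraries that lay closest together. It had 18.6, 20.9 and 21.8 FPKM in nanozyme lungs, 20.1, 37.8 and 29.7 FPKM in model lungs, and 1.79, 3.30 and 2.25 FPKM in normal lungs. All nanozyme libraries were near the lowest model library and far above normal, and replicate 2 lay between the others. Ms4a8a, described in mouse tumour-associated macrophages, had 9.96, 17.4 and 9.83 FPKM in nanozyme lungs, 14.1, 22.6 and 12.8 FPKM in model lungs, and 6.17, 4.67 and 4.37 FPKM in normal lungs. Normal lungs were again lowest, nanozyme replicate 2 lay inside the model range, and the difference of model against normal, 1.49 ± 0.27, was the smallest of the 7. For Ms4a7 the same difference was 3.11 ± 0.23.

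The order of the members changed between groups on the FPKM scale, which is per length. In normal lung Ms4a6b was highest (8.19 ± 0.564 FPKM) and above every other member in each library. Ms4a6c, Ms4a6d and Ms4a8a followed with overlapping ranges (means 5.32, 5.11 and 5.07 FPKM), and then came Ms4a4c, Ms4a7 and Ms4a4a (3.18, 2.45 and 1.75 FPKM), each overlapping with its neighbour in that order. In model lung the order of means was Ms4a6d, Ms4a6c, Ms4a6b, Ms4a4c, Ms4a7, Ms4a4a and Ms4a8a, and neighbours overlapped between libraries. Within each of the 3 model libraries, however, Ms4a6d exceeded Ms4a6c, which exceeded Ms4a6b, which exceeded Ms4a4c. In nanozyme replicates 1 and 3 Ms4a6d was not the highest member, and Ms4a6c (27.5 FPKM) and Ms4a6b (25.3 FPKM) led there.

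The make-up of the summed FPKM of the 7 genes differed between groups as well. The sum was 119, 276 and 119 FPKM in nanozyme lungs, 265, 509 and 379 FPKM in model lungs, and 29.9, 31.4 and 31.9 FPKM in normal lungs. Ms4a6d held 17.2%, 29.2% and 15.4% of it in nanozyme lungs, 28.3% to 34.8% in model lungs and 16.2% to 16.7% in normal lungs. The share in nanozyme replicates 1 and 3 was thus near that in normal lungs, while their sum was above it. Ms4a7 held 15.7%, 7.59% and 18.4% in nanozyme lungs, 7.43% to 7.83% in model lungs and 6% to 10.5% in normal lungs. Nanozyme replicates 1 and 3 had the highest Ms4a7 shares of the 9 libraries. Ms4a8a held 6.30% to 8.38% in nanozyme lungs, 3.37% to 5.31% in model lungs and 13.7% to 20.6% in normal lungs, and Ms4a6b 16.4% to 21.3%, 13.6% to 15.8% and 25.3% to 27.2%. For both genes the share was lowest in model and highest in normal lungs, with no overlap between groups.

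**Figure D2:**
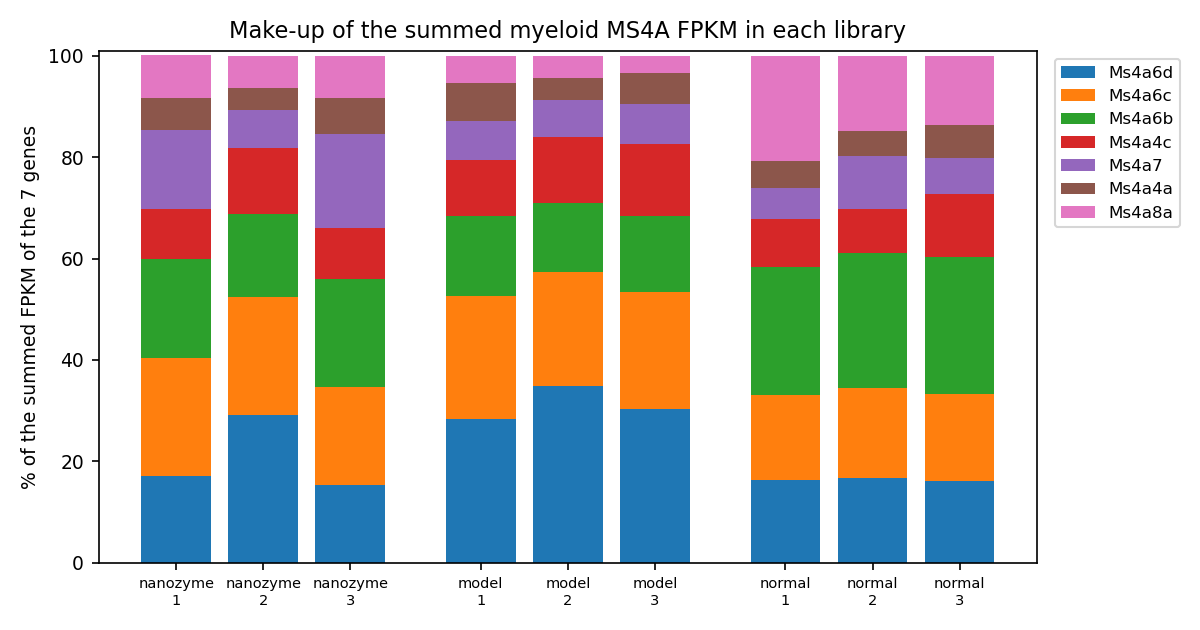
Percent of the summed FPKM of the 7 myeloid MS4A genes held by each gene, with 1 bar per library and groups from left to right as nanozyme, model and normal. Ms4a6d takes 28.3% to 34.8% in model libraries and 16.2% to 16.7% in normal ones, and Ms4a7 takes 15.7% and 18.4% in nanozyme replicates 1 and 3.

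Members were also set against Csf1r, the receptor gene for the growth factor CSF1 on mononuclear phagocytes. The ratios of all members but Ms4a8a were higher in model than in normal lung without overlap. How many of all genes tested have such a ratio was not counted, so nothing is read from this about the members. The ratio of Ms4a6d to Csf1r was 0.330, 1.09 and 0.356 in nanozyme lungs, 0.836 to 1.62 in model lungs and 0.194 to 0.225 in normal lungs. That of Ms4a7 was 0.282 to 0.425 in nanozyme lungs, 0.224 to 0.345 in model lungs and 0.0823 to 0.122 in normal lungs. Ms4a8a was the exception, with ratios of 0.161 to 0.234 in nanozyme lungs, 0.133 to 0.206 in model lungs and 0.172 to 0.283 in normal lungs, which overlap. Csf1r was chosen for this after the values were seen, and its own FPKM was higher in model than in normal lung (1.95 ± 0.15, adjusted p = 0.00018). That rise was below the median of 2.89 over the 16 monocyte and recruited macrophage markers. Another of these markers, Adgre1, rose by 3.65 ± 0.24, more than every member except Ms4a6c and Ms4a6d. Ratios to other markers were not taken, so the result holds for Csf1r alone.

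In model against normal lung all 7 members passed the test across all genes as higher, with no overlap between groups. Of the 14540 genes tested, 17.4% passed as higher and 22.7% as lower (40.1% in either direction), and 23.5% were higher and 34.9% lower without overlap. Since the members were picked with the values of all groups known, nothing is read from their count here or in the comparisons that follow. Their median log2 difference was 3.11, against -0.12 over all genes tested. Without normal replicate 1 or normal replicate 3, 3865 and 3754 genes passed in place of 5824, and all 7 members passed in every fit that left out a library. Median-of-ratios scaling moved the median of all genes by 0.13 and the share of higher genes among those passing from 43.4% to 55.3%, and equal column sums moved that share to 54.2%, with all members higher under both.

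**Figure D3:**
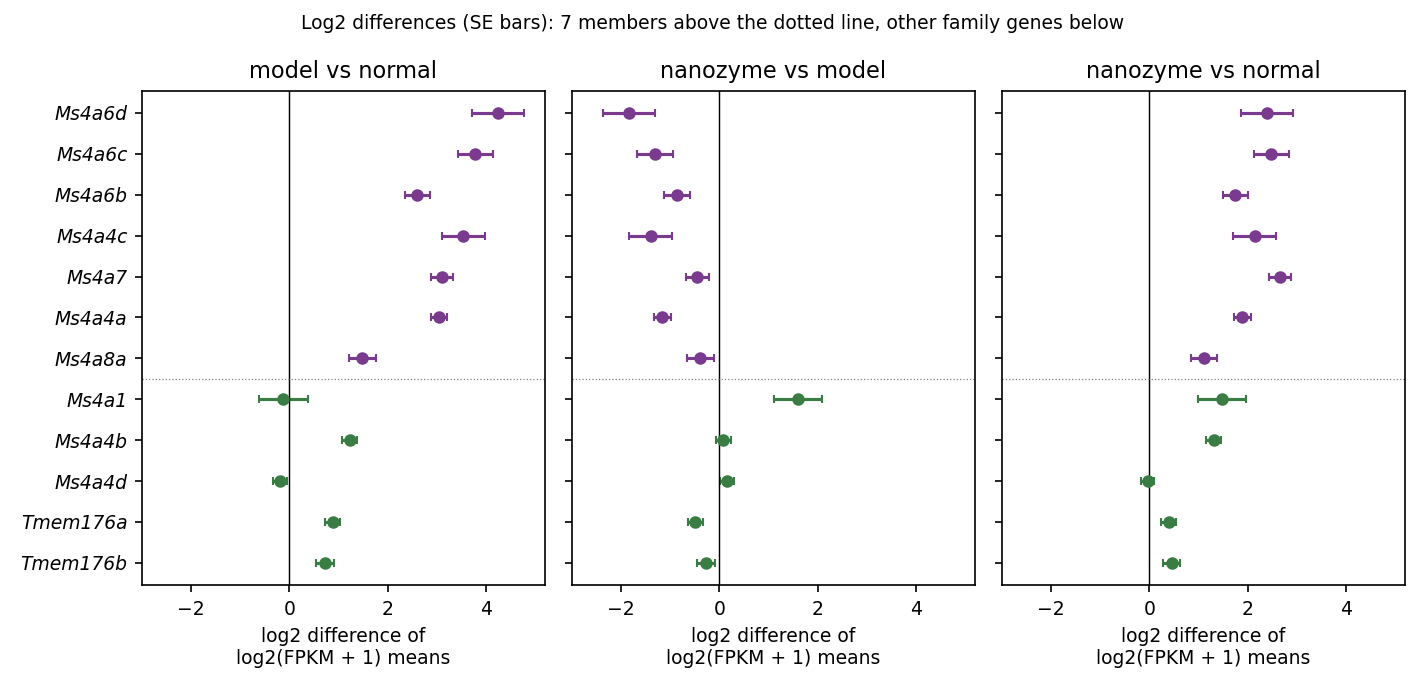
Log2 differences with SE bars of the 7 members, above the dotted line, and of the 5 other tested family genes, below it, in the 3 comparisons. The members lie between 1.49 and 4.25 in model against normal lung, whereas Ms4a4d lies at -0.19.

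In nanozyme against model lung no member passed, and neither did any other gene: limma called 0 of 14540 genes (0%), with 3211 at an unadjusted p under 0.05, among them 5 members. The differences of the members were all negative, from -1.85 ± 0.53 for Ms4a6d, through -1.40 ± 0.44 for Ms4a4c, -1.31 ± 0.36 for Ms4a6c, -1.16 ± 0.17 for Ms4a4a and -0.86 ± 0.26 for Ms4a6b, to -0.45 ± 0.23 for Ms4a7 and -0.39 ± 0.27 for Ms4a8a. Their median was -1.16, against 0.09 over all genes tested. Ms4a4a and Ms4a6c were lower in every nanozyme than in every model library, as were 5.83% of all genes tested, while 10.6% were higher without overlap.

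Without nanozyme replicate 2, 5 of the 7 members passed as lower and 0 as higher, where 9.5% of 14442 genes tested passed as lower, 12.4% as higher and 21.9% in either direction. The differences then were -2.51 ± 0.30 for Ms4a6d, -1.90 ± 0.31 for Ms4a4c, -1.75 ± 0.22 for Ms4a6c, -1.33 ± 0.13 for Ms4a4a and -1.15 ± 0.19 for Ms4a6b. Ms4a7 (-0.47 ± 0.27) and Ms4a8a (-0.64 ± 0.24) did not pass. When nanozyme replicate 1 or 3 was left out instead, 0 members, 0 other family genes and 0 listed genes passed in nanozyme against model lung. This comparison shares the model libraries with that of model against normal lung, and the numbers in the library names run separately for the nanozyme group, so that a batch, if there was one, and the treatment cannot be told apart.

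Where each nanozyme library lay between the normal mean (0%) and the model mean (100%) on the log2 scale shows the spread within that group. Ms4a6d lay at 42.6%, 88.0% and 39% in nanozyme replicates 1, 2 and 3, and Ms4a4c at 45.6%, 89.0% and 47.1%. Ms4a7 lay at 81.4%, 86.5% and 88.4%, which made it the member with the least spread. Ms4a4a lay at 53.4%, 73.5% and 59.3%. Over 13 interferon response genes the median position was 8.4%, 98.7% and 28.2%, and over the 12 monocyte and recruited macrophage markers with at least a 1 log2 unit difference it was 60.9%, 91.8% and 53.6%. In replicates 1 and 3 the members other than Ms4a7 lay between 39% and 59.3%, above both interferon medians. Of the single interferon genes, Xaf1 (49.1%) and Cxcl10 (47.4%) lay within that range in replicate 3, and the others below it. In replicate 1 all of them lay below it, with Irf7 highest at 30.6%. The part of either gene list in the result was not tested.

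**Figure D4:**
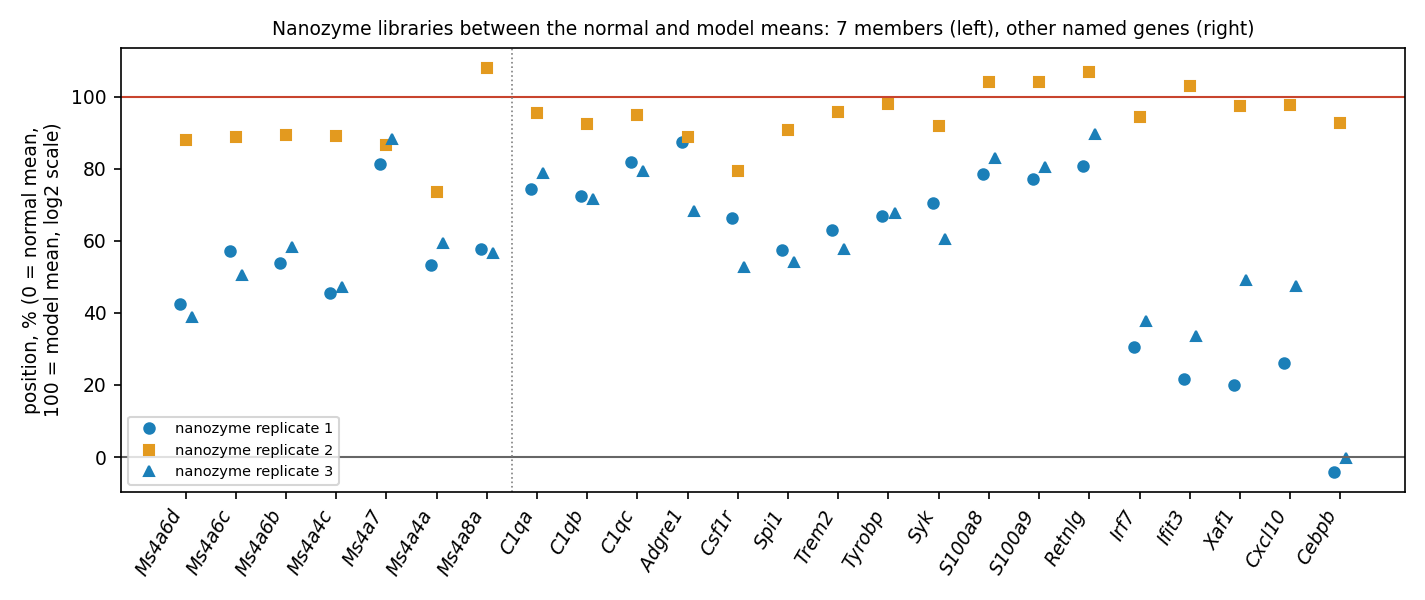
Position of each nanozyme library between the normal mean (0%) and the model mean (100%) on the log2(FPKM + 1) scale, for the 7 members (left of the dotted line) and other named genes (right). Replicate 2 lies at 73.5% or above for every member, while replicates 1 and 3 lie between 39% and 59.3% for all members except Ms4a7.

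In nanozyme against normal lung all 7 members passed as higher, where 8.39% of genes passed as higher, 5.5% as lower and 13.9% in either direction. No member overlapped between groups, and 22.1% of genes were higher and 20.8% lower without overlap. The differences ran from 1.11 ± 0.27 for Ms4a8a to 2.66 ± 0.23 for Ms4a7, the largest, with 2.40 ± 0.53 for Ms4a6d and 2.48 ± 0.36 for Ms4a6c. For Ms4a4a, Ms4a4c and Ms4a6b they were 1.89 ± 0.17, 2.14 ± 0.44 and 1.75 ± 0.26. The median of all 7 members was 2.14, against -0.01 over all genes tested. Without nanozyme replicate 2, 6 members passed, all but Ms4a8a, where 9.24% of genes passed as higher, 4.27% as lower and 13.5% in either direction. The differences then were 2.64 ± 0.27 for Ms4a7, 2.04 ± 0.22 for Ms4a6c, 1.74 ± 0.30 for Ms4a6d and 1.72 ± 0.13 for Ms4a4a. Those of Ms4a4c, Ms4a6b and Ms4a8a were 1.64 ± 0.31, 1.46 ± 0.19 and 0.86 ± 0.24. Without normal replicate 1, 4 members passed (Ms4a4a, Ms4a6b, Ms4a6c and Ms4a7) among 783 genes in place of 2020. Without normal replicate 2 or 3, 5 members passed, all but Ms4a6d and Ms4a8a, among 1473 and 734 genes. Equal column sums moved the higher share of passing genes from 60.4% to 70.4% and quantile normalization to 46.8%, with all members higher under both. A mean FPKM filter of 5 left 1285 passing genes.

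Of 13 other family genes listed by name, 5 were tested and 3 of these rose in model against normal lung (Ms4a4b, Tmem176a and Tmem176b), with 0 falling. In nanozyme against model lung 0 of the 5 passed with all libraries, and 1 as higher and 2 as lower without nanozyme replicate 2. In nanozyme against normal lung 1 passed as higher with all libraries (Ms4a4b) and 2 without that library (Ms4a4b and Ms4a1). Ms4a4b, known in mouse T cells as a partner of the costimulatory receptor GITR, rose by 1.23 ± 0.15 (adjusted p = 0.000913), at 7.70, 6.35 and 9.32 FPKM in nanozyme lungs, 6.57, 7.29 and 7.87 FPKM in model lungs, and 2.14, 2.90 and 2.55 FPKM in normal lungs. It was also higher in nanozyme than in normal lung (1.31 ± 0.15, adjusted p = 0.00159), with nanozyme and model libraries overlapping. Its coding sequence is close to that of Ms4a4c, and its nanozyme libraries lay between 6.35 and 9.32 FPKM, where those of Ms4a4c lay between 11.7 and 35.7 FPKM. Ms4a4d, the other close relative of Ms4a4c, had 22.9 ± 3.02, 20.4 ± 2.51 and 23.5 ± 2.75 FPKM in nanozyme, model and normal lungs. The 3 groups of Ms4a4d overlapped and it passed in no comparison (-0.19 ± 0.14, adjusted p = 0.295, for model against normal). In the genome it lies between Ms4a6b and Ms4a6d.

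Tmem176a and Tmem176b, relatives on another chromosome that encode ion channels of endosomes in antigen-presenting cells, were the most abundant family genes. Tmem176a had 225, 332 and 245 FPKM in nanozyme lungs, 362, 386 and 362 FPKM in model lungs, and 214, 186 and 203 FPKM in normal lungs, and rose in model against normal lung by 0.88 ± 0.15 (adjusted p = 0.00337). Tmem176b rose by 0.72 ± 0.18 (adjusted p = 0.0155), a call that ended with quantile normalization (0.114) and without normal replicate 1 (0.0532). Both differences were below those of the 7 members. Neither passed in nanozyme against normal lung (0.39 ± 0.15 and 0.45 ± 0.18, adjusted p = 0.121 and 0.142) or without nanozyme replicate 2 (adjusted p = 0.216 and 0.279). In nanozyme against model lung the differences were -0.49 ± 0.15 for Tmem176a (adjusted p = 0.182), which was lower in every nanozyme than in every model library, and -0.28 ± 0.18 for Tmem176b (adjusted p = 0.391). Without nanozyme replicate 2 both passed as lower, Tmem176a at -0.65 ± 0.11 (adjusted p = 0.00563) and Tmem176b at -0.48 ± 0.13 (adjusted p = 0.0394).

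Ms4a1, encoding CD20, was set beside B cell markers. It had 39.4, 7.31 and 27.1 FPKM in nanozyme lungs, 5.62, 6.15 and 6.24 FPKM in model lungs, and 5.67, 7.05 and 7.22 FPKM in normal lungs. Nanozyme replicates 1 and 3 stood far above all other libraries, and replicate 2 just above the highest normal one. The difference of nanozyme against model was 1.60 ± 0.49 (adjusted p = 0.182), and without nanozyme replicate 2 it was 2.27 ± 0.17 (adjusted p = 0.000356). Against normal lung the difference was 1.47 ± 0.49 (adjusted p = 0.079), and 2.15 ± 0.17 (adjusted p = 0.000557) without that library. Of the 7 B cell markers 0 passed by limma in model against normal lung, where the most abundant, Cd79b and Cd79a, had differences of -0.23 and 0.16. In nanozyme against model lung 0 of 7 passed with all libraries and all 7 as higher without nanozyme replicate 2, and in nanozyme against normal lung 3 of 7 passed as higher (Cd79a, Cd22 and Blk), against all 7 without that library. The Cd79a call in nanozyme against normal lung (1.43 ± 0.38, adjusted p = 0.0422) was lost in 8 of the 9 fits without 1 library (adjusted p of 0.00084 to 0.146). Their summed FPKM ranged from 69.4 to 221 in nanozyme lungs, from 48.8 to 67.7 in model lungs and from 49.2 to 68.8 in normal lungs. The 8 other listed family genes did not reach 1 FPKM in 3 libraries and were not tested. Ms4a14 had 0.847 ± 0.256 FPKM in model lungs against 0.231 ± 0.0381 FPKM in normal lungs, and Ms4a15 0.0988 ± 0.0885 FPKM against 0.457 ± 0.0386 FPKM. Ms4a2 was at most 0.601 FPKM and Ms4a3 at most 0.209 FPKM, and Ms4a5, Ms4a10, Ms4a13 and Ms4a18 are listed at 0 in all libraries.

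Genes around the cluster were set beside the members by position. Of 12 tested protein-coding genes without an Ms4a symbol that lie inside the cluster or within 300 kb of it, 3 rose (Slc15a3, Cd6 and Ccdc86) and 2 fell (Tmem109 and Stx3) in model against normal lung, with a median log2 difference of 0.34. Over all genes tested 17.4% passed as higher, 22.7% as lower and 40.1% in either direction, so that 5 of 12 is near the background. Slc15a3, a peptide and histidine transporter of phagocyte lysosomes, rose by 3.87 ± 0.53 (adjusted p = 0.00145) and is the sole neighbour in the range of the Ms4a4 and Ms4a6 members. Cd6, a T cell surface receptor, rose by 0.88 ± 0.14 (adjusted p = 0.00241). The other tested neighbours lay between -0.98 and 1.28, and Gm8369, between Ms4a6c and Ms4a6b, did not pass in this comparison (0.43 ± 0.26, adjusted p = 0.214).

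**Figure D5:**
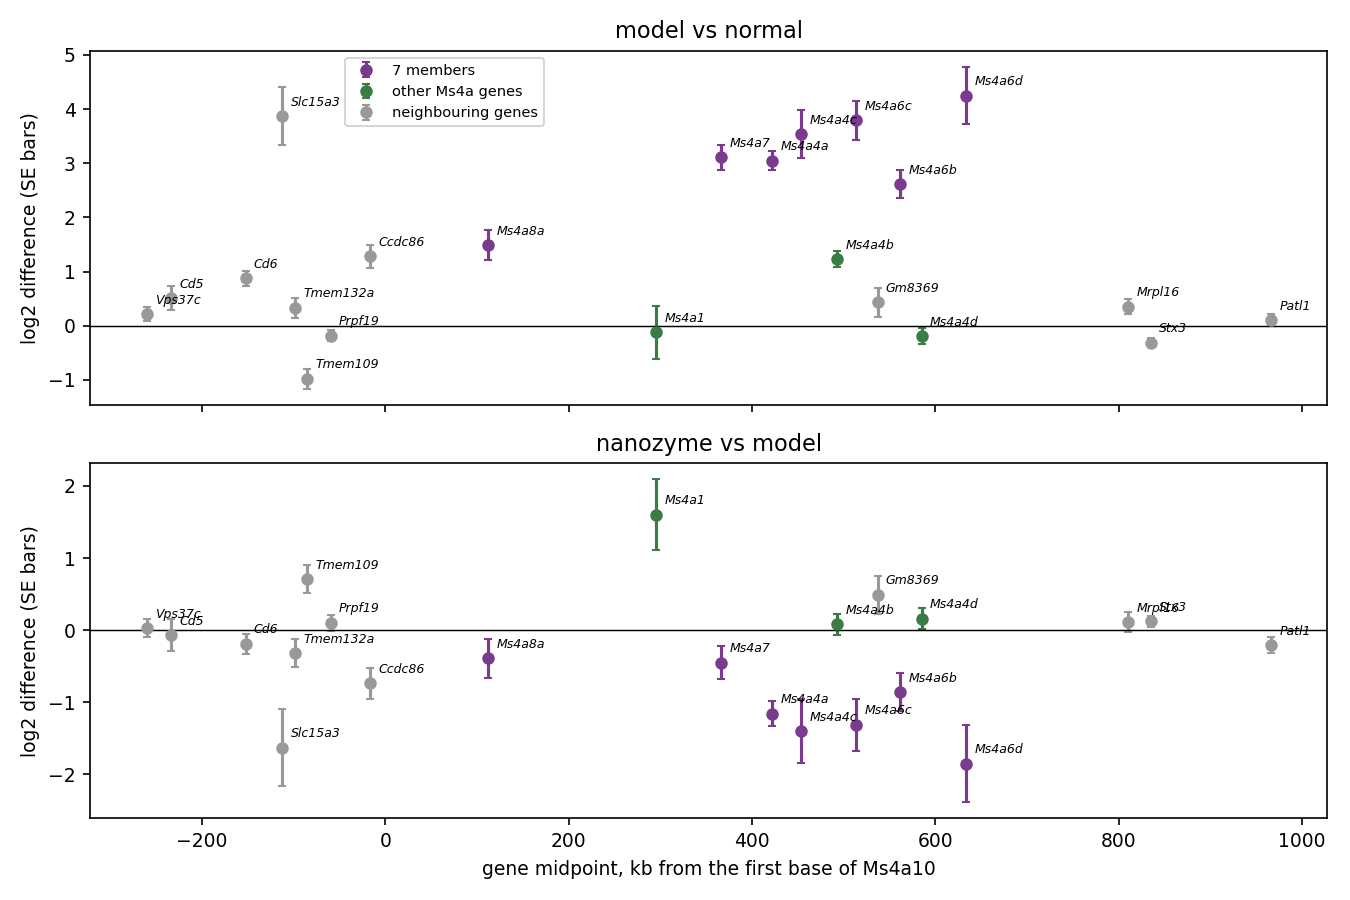
Log2 differences with SE bars of tested genes against distance in kb from the first base of Ms4a10, for model against normal lung (top) and nanozyme against model lung (bottom). Neighbouring genes differ in size: Ms4a4d (-0.19) lies between Ms4a6b (2.61) and Ms4a6d (4.25) in the top panel.

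Receptors and adaptors known to work with MS4A proteins were higher in model lung as well. Of 6 listed genes 5 were in the table and 4 were tested, and all 4 rose in model and in nanozyme against normal lung. Trem2 had 10.2, 19.9 and 9.16 FPKM in nanozyme lungs, 22.2, 27.4 and 16.5 FPKM in model lungs, and 1.96, 3.07 and 2.30 FPKM in normal lungs, a difference of model against normal of 2.73 ± 0.29 (adjusted p = 0.000537). Its adaptor Tyrobp rose by 2.96 ± 0.32 (adjusted p = 0.000546), the kinase Syk, which acts downstream of both and of Dectin-1, by 2.77 ± 0.22 (adjusted p = 0.00018), and Card9, which carries the signal to NF-kB, by 1.44 ± 0.13 (adjusted p = 0.000275). In nanozyme against model lung 0 of 4 passed with all libraries and all 4 passed as lower without nanozyme replicate 2, and the 4 rises against normal lung passed without that library too. Vsig4, the partner of the Ms4a6d protein, was not tested, at 2.33, 0.18 and 1 FPKM in nanozyme lungs, at most 0.244 FPKM in model lungs and at most 0.126 FPKM in normal lungs. It was thus near 0 in the group where Ms4a6d was highest.

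Markers of monocytes and recruited macrophages moved with the members, and their part in the result was not tested. In model against normal lung 14 of 16 rose and 0 fell, with a median of 2.89, among them the macrophage surface gene Adgre1 (3.65 ± 0.24, adjusted p = 9.61e-05) and the complement genes C1qc (2.79 ± 0.14, adjusted p = 5.97e-05), C1qb (3.00 ± 0.18) and C1qa (2.55 ± 0.16, both adjusted p = 9.34e-05). Their summed FPKM was 7008 to 12020 in nanozyme lungs, 8910 to 12460 in model lungs and 4141 to 5044 in normal lungs, and none was at 0 in any library. Lyz2, the lysozyme gene, made up most of this sum, with 5860 to 9730 FPKM in nanozyme lungs, 6840 to 9550 FPKM in model lungs and 3690 to 4560 FPKM in normal lungs, and its difference of model against normal was 0.92 ± 0.26 (adjusted p = 0.0216), below the median of the list. Alveolar macrophage markers were split, with 3 of 11 higher, 0 lower and a median of 0.02. Those that rose were Chil3, a chitinase-like protein (1.78 ± 0.15, adjusted p = 0.000228), the integrin gene Itgax (2.17 ± 0.32, adjusted p = 0.00197) and the scavenger receptor gene Marco (2.12 ± 0.35, adjusted p = 0.00294). Of the 11 markers, 6 had a positive and 5 a negative difference, among them Siglecf (-0.28 ± 0.18) and Pparg (-0.10 ± 0.16). The sum of the 11 was 760 to 864 FPKM in nanozyme lungs, 682 to 784 FPKM in model lungs and 319 to 357 FPKM in normal lungs. Chil3 carried most of the change in this sum, with 408 to 539, 436 to 576 and 135 to 147 FPKM in the same order. In nanozyme against normal lung 10 of the 16 monocyte and recruited macrophage markers and 6 of the 11 alveolar ones rose, with 0 falling, against 9 and 7 without nanozyme replicate 2. With all libraries 0 of either list passed in nanozyme against model lung. Without nanozyme replicate 2, 10 of the 16 passed there as lower and 0 as higher, and of the 11 alveolar markers 1 passed as lower and 5 as higher.

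Neutrophil and T cell markers rose with the members too, and their part in the result was not tested. All 8 neutrophil markers rose in model against normal lung (median 5.06), and those with the smallest adjusted p were Retnlg (5.29 ± 0.30, adjusted p = 7.65e-05), S100a8 (6.23 ± 0.36, adjusted p = 7.77e-05), S100a9 (5.97 ± 0.38, adjusted p = 9.34e-05) and Mmp8 (5.58 ± 0.37, adjusted p = 0.0001). With all libraries 0 of 8 passed in nanozyme against model lung, and 7 of 8 passed as lower without nanozyme replicate 2 (median -1.26). In nanozyme against normal lung all 8 passed as higher, with and without that library. Their sum was 1104 to 3279 FPKM in nanozyme lungs, 2439 to 3155 FPKM in model lungs and 36.8 to 46.2 FPKM in normal lungs, and Ly6g is listed at 0 in all normal lungs. Of 9 T cell markers 5 rose and 0 fell in model against normal lung (median 0.87), among them Lck (1.14 ± 0.14, adjusted p = 0.000956) and Cd8a (1.34 ± 0.17, adjusted p = 0.000984). Their sum was 57.4 to 82.4 FPKM in nanozyme lungs, 63.8 to 76.4 FPKM in model lungs and 33.2 to 40.2 FPKM in normal lungs. Of the 9 T cell markers 0 passed in nanozyme against model lung with or without nanozyme replicate 2, and in nanozyme against normal lung 5 passed as higher with all libraries and 4 without it.

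Transcription factors of myeloid cells were split. In model against normal lung 5 of 9 rose and 2 fell (Cebpa and Klf4), with a median of 1.36. Spi1, which encodes PU.1, had 36.2, 73.8 and 33.7 FPKM in nanozyme lungs, 83.9, 105 and 83.0 FPKM in model lungs, and 8.80, 11.0 and 10.4 FPKM in normal lungs, and rose by 3.05 ± 0.27 (adjusted p = 0.000273). Irf5 rose by 1.53 ± 0.16 (adjusted p = 0.000456) and Cebpb by 1.42 ± 0.34 (adjusted p = 0.0114). Of the 9 factors 0 passed in nanozyme against model lung with all libraries, and 4 passed as lower and 1 as higher without nanozyme replicate 2. In nanozyme against normal lung 3 passed as higher with all libraries and 4 without it. Of 13 interferon response genes tested 12 rose and 0 fell in model against normal lung, with a median of 3.11, including Irf7 (3.52 ± 0.52) and Cxcl10 (7.27 ± 1.08, both adjusted p = 0.00195). In nanozyme against normal lung 2 of the 13 passed, Irf7 (1.91 ± 0.52, adjusted p = 0.0452) and Cxcl10 (4.15 ± 1.08, adjusted p = 0.0378), against 3 without nanozyme replicate 2. Both calls were lost in 7 of the 9 fits without 1 library, where adjusted p reached 0.124 for Irf7 and 0.117 for Cxcl10, and in 5 and 2 of the 8 other settings. None of the 13 passed in nanozyme against model lung with all libraries, and all 13 passed as lower without nanozyme replicate 2. Their sum was 201 to 1841 FPKM in nanozyme lungs, 1386 to 2440 FPKM in model lungs and 143 to 176 FPKM in normal lungs.

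The genes whose profiles over the 9 libraries lay nearest to each member are named here. Nearness was the root mean square distance between mean-centred log2(FPKM + 1) profiles among 14157 candidate genes. For Ms4a6c the nearest were Pilra, an inhibitory receptor (0.0622), Lrrc25 (0.131) and Lilrb4a (0.149), and for Ms4a6b they were the tetraspanin gene Cd53 (0.0874), Gpr65 (0.0979) and Clec4a3 (0.1). For Ms4a6d they were Aoah, an enzyme that inactivates endotoxin (0.130), Tnfrsf1b, a TNF receptor (0.190), and Slc2a6 (0.197). Those of Ms4a4c were Lcp2 (0.170), Pilrb1 (0.191) and Trem3 (0.202), and those of Ms4a4a were Tlr1 (0.188), Gpr65 (0.207) and Themis2 (0.225). Ms4a7 was nearest to Stfa1 (0.255), whose own value is uncertain because it belongs to a cluster of near-identical genes, and to C1qc (0.277) and C1qb (0.284). The nearest genes of Ms4a8a were Ifi27l2a, Sh3bgrl3 (both 0.143) and Arpc1b (0.163).

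Among the members themselves the distance was smallest between Ms4a4c and Ms4a6c (0.227) and between Ms4a4a and Ms4a6b (0.26), and largest between Ms4a6d and Ms4a8a (1.20). Ms4a6b and Ms4a6c, which share 85.4% of their aligned coding bases and the 48-base upstream run, lay at 0.513. Ms4a6c and Ms4a6d, at 79.0%, lay at 0.318, and Ms4a6b and Ms4a6d, at 81.2%, at 0.756. The pair of members with the closest coding sequences was thus not the pair with the closest profiles. The distance also holds differences in size of change between groups.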

How the data were processed

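Lung RNA of 9 mice was sequenced as poly(A) libraries made with a second-strand marking buffer, per the labels' protocols. Reads were aligned with HISAT2 to GRCm38, per the submitters' processing notes; the annotation, counting tool, strand setting, filters and versions are not given in the sources used here. The authors deposited 1 table of FPKM values, 1 column per library. Low values showed no whole-read steps (at most 5.06% of ratios between libraries in the fullest bin), so no count test was run. Genes with FPKM of at least 1 in at least 3 libraries (14540) were tested on log2(FPKM + 1) with limma 3.58.1 (R 4.3.3), all 9 libraries in 1 fit, intensity trend, two-sided, Benjamini-Hochberg adjustment at 0.05 over all genes tested. The fit was tested on simulated data. The pseudocount shrinks the differences of low genes. With 3 against 3, an exact permutation test cannot go below 0.10, so none was run. Members and lists were chosen with earlier results of these data known. Named genes were the 7 members, the listed family genes, per list up to 4 passing genes with the smallest adjusted p in model against normal lung (or the 2 most abundant where 0 passed), the 3 nearest profiles per member, and neighbours by position. Csf1r, Lyz2, Vsig4, Ly6g and genes listed by name for counts of 5 or fewer were named after their values were seen. A gene that the rule names among the transcription factors is not reported here. Clec7a and Mx1 were listed but are not analysed here. Of the 25526 names, 21437 matched GENCODE vM21 symbols. Upstream sequences came from RefSeq (GRCm38.p6), coding sequences from GENCODE transcripts aligned with Biopython 1.88, and figures were drawn with matplotlib 3.10.9 in Python 3.11.15. Alternatives were another pseudocount (0.1), no filter, a mean FPKM of at least 5, median-of-ratios scaling, quantile normalization, equal column sums, fits of the 2 groups compared, a replicate block and leaving out each library.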

Additional observations from a re-analysis of the deposited data

How the results depend on the processing

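All 357 recomputed log2 differences of the members kept their sign, and 344 also their side of the threshold. Of 2019 recomputed differences of other named genes, 1918 kept both and 12 turned sign. The members were picked with the values known and the fits share libraries, so nothing is read from these counts. Without 1 library at a time, passing genes ranged from 3754 to 6546 (model against normal), 0 to 3167 (nanozyme against model) and 734 to 2264 (nanozyme against normal). Passing members then ranged from 0 to 5 in nanozyme against model and 4 to 7 in nanozyme against normal, other family genes from 0 to 3 and from 1 to 2, and listed genes from 0 to 62 and from 29 to 54. Without a filter 5 other family genes passed in model against normal, 2 in nanozyme against normal, and 4 genes in nanozyme against model. A mean FPKM of at least 5 left 1285 genes in nanozyme against normal. Differences that turned sign had not passed. With median-of-ratios scaling Ms4a1 came to 0.01 (model against normal) and Ms4a4b to -0.02 (nanozyme against model), and Ms4a4b to -0.01 with quantile normalization. Without 1 library, nanozyme against model ranged from -0.04 to 0.2 for Ms4a4b and -0.11 to 0.1 for Chil3. Nanozyme against normal ranged from -0.12 to 0.07 for Ms4a4d (0.03 with equal column sums), -0.03 to 0.66 for Cebpb, -0.06 to 0.33 for Cma1 and -0.42 to 0.91 for Retnla. The cause was not tested. The labels do not say whether same-numbered libraries are paired. Their correlations of deviations (-0.331 to 0.227) cannot settle it, because deviations within a group of 3 depend on each other. With a replicate block 5628, 0 and 1734 genes passed, and 7, 0 and 7 members. Depth is unknown, and 3 mice per group limit every value.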

Other observations

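Further lists bear on which cells are in the samples. Of 8 genes of alternatively activated macrophages, 2 rose and 1 fell in model against normal lung: Arg1, an arginine-degrading enzyme, rose by 2.99 ± 0.45 (adjusted p = 0.00198) and Retnla by 2.55 ± 0.62 (adjusted p = 0.0125), and the lectin gene Mgl2 fell by 2.29 ± 0.38 on the log2 scale (adjusted p = 0.00296). Arg1 had 8.88, 4.42 and 2.02 FPKM in nanozyme lungs, 12.9, 34.3 and 23.2 FPKM in model lungs, and 1.52, 2.05 and 2.11 FPKM in normal lungs, so that nanozyme replicate 2 did not lie with the model libraries for it. Of 7 tested dendritic cell markers 1 fell and 0 rose in model against normal lung: Cd209a, a lectin, had 0.417, 0.493 and 0.718 FPKM in nanozyme lungs, 0.395, 0.162 and 0.349 FPKM in model lungs, and 8.88, 9.10 and 7.72 FPKM in normal lungs (-2.88 ± 0.14 for model against normal, adjusted p = 4.28e-05). Of 3 tested mast cell and basophil markers 0 passed in any of the 3 comparisons by limma with all libraries, and the most abundant were Hdc (0.38 ± 0.24 for model against normal, adjusted p = 0.238) and Cma1 (-0.58, adjusted p = 0.0703, and -0.82 with adjusted p = 0.0152 without normal replicate 2). Without nanozyme replicate 2 all 3 passed in nanozyme against model lung, 2 as higher and 1 as lower, with Cma1 at 0.89 (adjusted p = 0.036) and Hdc at -0.96 (adjusted p = 0.0105). In nanozyme against model lung 0 dendritic cell markers and 0 alternative activation genes passed with all libraries. Without nanozyme replicate 2, 1 of the 7 dendritic cell markers passed there as lower, and 4 of the 8 alternative activation genes as lower and 2 as higher. In nanozyme against normal lung 2 dendritic cell markers passed as lower with and without that library. Of the alternative activation genes 1 passed as higher and 3 as lower there, against 3 and 3 without that library.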
